A study of Mus musculus with 12 samples.

Results

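Voltage-gated calcium channels were examined through 10 of their subunit genes, Cacna1a, Cacna1b, Cacna1c, Cacna1d, Cacna1e, Cacna1h, Cacna2d1, Cacna2d2, Cacna2d3 and Cacnb4. They were chosen by gene symbol from the deposited count tables of a RiboTag experiment on cultured mouse dorsal root ganglion (DRG) neurons. Of the 10 genes, 9 are among the 9112 genes listed for both genotypes, and Cacna1d is listed only in the larger table, which holds 14177 genes. In RiboTag mice, Cre recombinase switches the ribosomal protein Rpl22 to a form with an HA tag, so that an antibody against HA pulls down ribosomes, with their RNA, from the cells in which Cre was active.

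All mice were Rpl22HA/HA. Those labelled Cre+ also carried Runx3-Cre, which acts in proprioceptive neurons, and those labelled Cre- were littermates without Cre, sequenced as a background control. Neurons from all ganglia of 5 male mice (3 to 6 months old in the labels, 8 to 12 weeks in the methods) were purified on Percoll, pooled for each sample and kept in culture for 24 h. RNA was sequenced from the HA pull-down and from an input of 10% of the lysate, with 3 libraries in each of the 4 groups. As the labels do not say whether the samples of a group were prepared on separate occasions, p-values measure the spread between these pooled samples. Because RNA was measured in bulk, fewer cells of a type and less RNA per cell cannot be told apart.

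A voltage-gated calcium channel consists of a large pore-forming subunit, encoded by a Cacna1 gene, and of auxiliary subunits. The pore decides the kind of current: Cacna1a encodes the pore of P/Q-type, Cacna1b of N-type, Cacna1e of R-type, Cacna1c and Cacna1d of L-type and Cacna1h of T-type channels. The extracellular alpha2delta proteins (Cacna2d genes) and the cytoplasmic beta proteins (Cacnb genes) bring pores to the membrane and tune their opening. In sensory neurons, N-type and P/Q-type channels open at the presynaptic terminal and trigger transmitter release, T-type channels open near the resting potential, and alpha2delta-1, the product of Cacna2d1, binds the gabapentinoid drugs.

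Because the pull-down samples RNA held by ribosomes, the sequence around each start codon is shown for the 9 members with an annotated start codon that could be read in the transcript set (GRCm38, GENCODE M21). Each line runs 5′ to 3′ on the coding strand, with 12 bases before and 9 bases after the start codon, which is in capitals.
Cacna1a: gctctttgcagaATGgcccgcttt
Cacna1b: cgcccgggagtcATGgtccgcttc
Cacna1e: ttaaacttcaggATGgctcgcttc
Cacna1d: aacactgtggaaATGaaccttccg
Cacna1h: ccctctgccaccATGaccgagggc
Cacna2d1: tcgatcgcgaagATGgctgctggc
Cacna2d2: ttgaatggaaacATGgcggtgccg
Cacna2d3: gccgccgccaggATGgccgggccg
Cacnb4: cgcctctgaaccATGtcgtcctcg
All 9 had a purine (A or G) 3 bases before the start codon, as did 86.8% of 10556 tested genes read in the same way, and 6 of the 9 had a G right after it, against 52.7% of those genes. Cacna1a, Cacna1b and Cacna1e, whose pores form one subfamily, shared 7 of the 9 coding bases in each of their 3 pairs. The other 33 pairs shared 1 to 7 (median 2), with the 7 reached by Cacna2d2 and Cacna2d3. No measured value was compared with these sequences.

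The libraries of the Cre+ table held 8886308 to 13941113 counts each, and those of the Cre- table held 9403767 to 18633365. The 3 Cre+ pull-downs resembled each other less than the other groups did, with a correlation across genes (log scale, genes not being independent) of 0.682 to 0.829, against 0.926 to 0.959 among the Cre- pull-downs, and Cre+ pull-down 1 took part in both lowest values. Runx3, whose gene drives Cre, was higher in the pull-down by 1.55 on the log2 scale in the libraries labelled Cre+ (standard error, SE, 0.87, FDR = 0.309) and by 3.52 in those labelled Cre- (SE 0.43, FDR = 0.000236), from edgeR's quasi-likelihood test, where FDR is the p-value adjusted over all genes tested by the Benjamini-Hochberg method. The difference between the genotypes (-1.93, 95% interval -4.07 to 0.20, FDR = 0.302) did not pass the test. A gene was called at an FDR below 0.1 with a 2-fold change. Of 7 proprioceptor markers, 6 were tested and 1 was called enriched in the libraries labelled Cre+, where 4.72% of all tested genes were, and 7 were tested and 6 called in those labelled Cre-, where 6.01% were. The marker called in Cre+ was Ntrk3, whose enrichment was 2.19 on the log2 scale there and 2.05 in Cre- (FDR of the difference 0.819). Of the 6 markers tested for the difference, Cre+ minus Cre-, 1 was positive (median -1.79). Spp1 (-3.60, FDR = 0.00258) and Etv1 (-2.41, FDR = 0.0159, edgeR quasi-likelihood test) were called negative, where 2% of 9006 genes were. In addition, apart from punctuation, the Cre+ table names its pull-down columns like the titles of the Cre- pull-downs, and these columns were assigned to Cre+ because the labels of the Cre+ pull-downs name that table. Because the driver was called in the libraries labelled as lacking Cre, Cre+ and Cre- stand throughout for libraries that carry these labels. All 10 pan-neuronal markers were listed in both tables. Their summed level was 20604 to 27287 normalized counts in the Cre+ inputs and 22055 to 24269 in the pull-downs (0 called enriched and 2, Uchl1 and Tubb3, depleted, where 2.19% of all tested genes were), and 23720 to 28600 in the Cre- inputs and 48404 to 55988 in the pull-downs (3, Nefh, Nefm and Snap25, enriched and 0 depleted, where 6.01% and 5.83% of all tested genes were). The Cre- sum was carried by the most abundant markers, Nefm, Nefl and Snap25, whereas Rbfox3 was at -0.76 there (log2 fold change, FDR = 0.0045).

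The first question was which subunit RNAs were richer in the HA pull-down than in the input labelled Cre+. Cacna1a and Cacna1b, the pores of the channels that trigger transmitter release, rose 3.22-fold and 2.24-fold, and no other member passed the test. Both calls were lost with a transcript length offset (FDR = 0.157 and 0.253, edgeR quasi-likelihood test). By the call rule, 2 of the 9 tested members were enriched, where 4.72% of the 8947 tested genes were, and 0 were depleted, against 2.19% of genes. DESeq2 called 4 members enriched, with Cacna1c and Cacna2d2 added, and the exact test called 2. Over all 8947 genes, DESeq2 called 1103 enriched and 568 depleted, and the exact test 794 and 485. Both tools called 0 members depleted. With edgeR's quasi-likelihood test, 4 members had an unadjusted p under 0.05 upwards and 0 downwards, as did 2109 of the 8947 genes in either direction. The median log2 fold change was 0.89 over the members, 0.08 over all genes and 0.70 over the longest 25% of genes by exon length. Of the 9 members 8 lay above 0, against 53% of all genes. In the libraries labelled Cre-, the pull-down was depleted of Cacna1e, the R-type pore, 2.71-fold (1 of 9 members, where 5.83% of 11526 genes were depleted), and no member tested with the filter on low genes was called enriched (0 of 9, where 6.01% were).

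**Figure D1:**
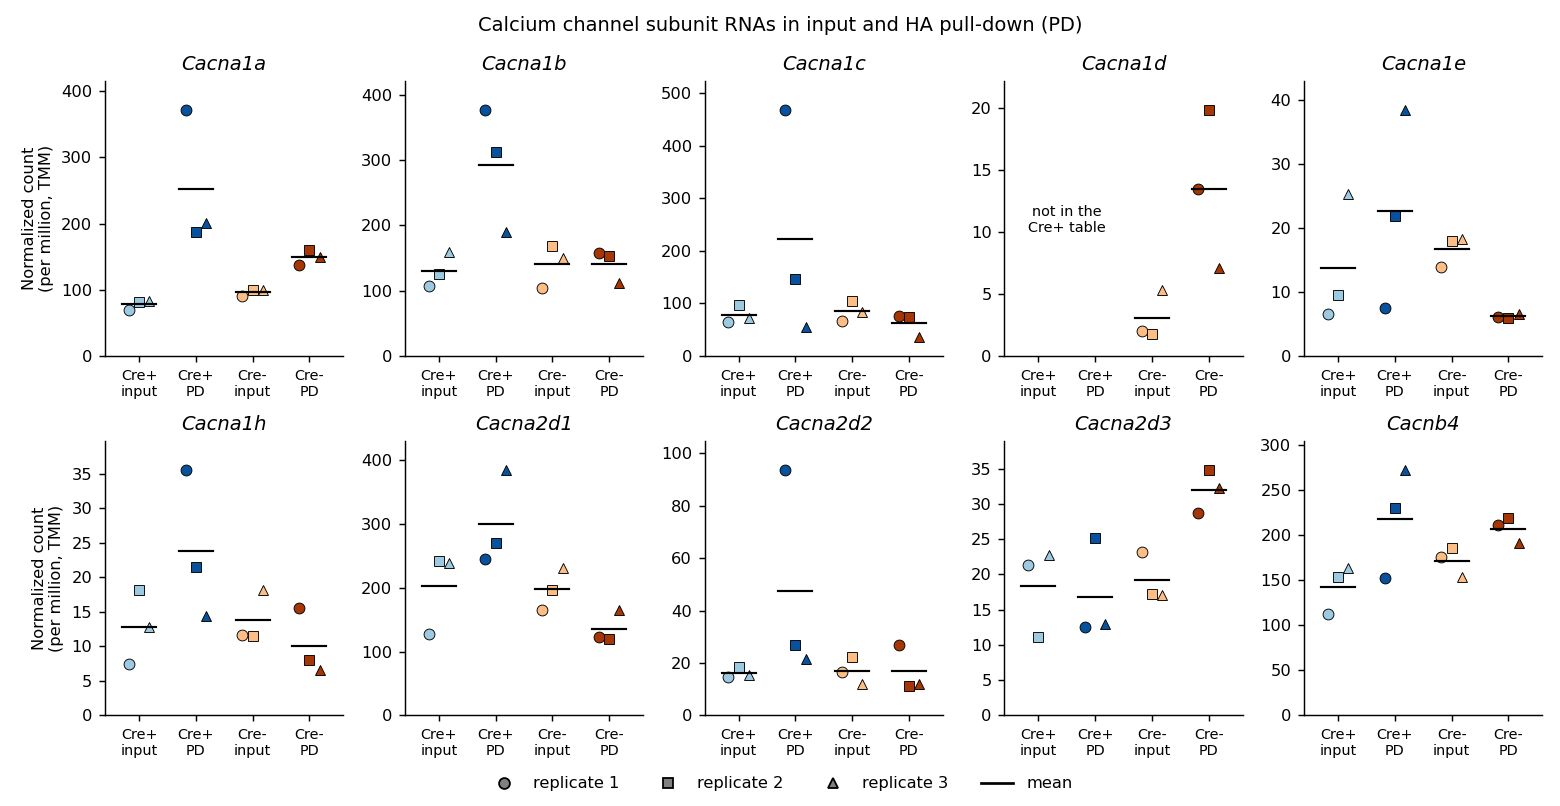
Normalized counts (scaled to 1000000 per library after TMM normalization, linear axes from 0) of the 10 members in each library, by group, with symbols for the replicate number and bars for the mean of 3 libraries. All Cre+ pull-downs of Cacna1a and Cacna1b lie above their inputs, all Cre- pull-downs of Cacna1e lie below theirs (5.94 to 6.52 against 14.0 to 18.3), and Cre+ pull-down 1 is the highest point for Cacna1c and Cacna2d2.

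Cacna1a (chromosome 8, 84338631 to 84640251, plus strand, GRCm38) had 69.7, 82.1 and 83.5 normalized counts (counts scaled to 1000000 per library after TMM normalization) in the Cre+ inputs and 371.0, 186.7 and 201.2 in the pull-downs. The groups did not overlap, and pull-down 1 stood well above the others. The pull-downs averaged 253 ± 102 (SD, n = 3) and the inputs 78.4 ± 7.59, which gave a log2 fold change of 1.69 (SE 0.35, FDR = 0.0462, edgeR quasi-likelihood test). Without Cre+ pull-down 1 the log2 fold change was 1.34 (FDR = 0.0243), whereas without Cre+ input 1, 2 or 3 it was 1.61, 1.72 and 1.74 but the call was lost (FDR = 0.217, 0.148 and 0.161). The fits without an input called only 7, 59 and 4 of the 8947 genes enriched, against 422 with every library. The Cre- inputs gave 90.3, 99.9 and 100.1, and the Cre- pull-downs 137.8, 159.7 and 149.9. These groups did not overlap either, and the log2 fold change was 0.62 (SE 0.16, FDR = 0.0185), which passed the FDR but not the fold limit. For Cre- that FDR was 0.226 with a transcript length offset and 0.253 with all 12 libraries in one fit. The antisense gene Gm16183 overlaps 3.81% of its exon bases, and no source says whether the counting used strand.

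Cacna1b (chromosome 2, 24603860 to 24763200, minus strand) gave 106.6, 125.7 and 160.0 normalized counts in the Cre+ inputs and 376.3, 312.2 and 190.2 in the pull-downs. Again each pull-down exceeded each input, with the gap smallest between pull-down 3 and input 3. The log2 fold change was 1.16 (SE 0.33, FDR = 0.0946, edgeR quasi-likelihood test), close to the limit. The call was lost without Cre+ input 1 (log2 fold change 1.04, FDR = 0.338), 2 (1.14, FDR = 0.255) or 3 (1.33, FDR = 0.222). It was also lost without Cre+ pull-down 1 (log2 fold change 0.98, below the fold limit) or 2 (FDR = 0.125), and with upper-quartile scaling (FDR = 0.14) or scaling by library size alone (FDR = 0.209). Over all genes, 7, 59 and 4 were called enriched without input 1, 2 or 3, against 422 with every library. Without pull-down 1 or 2 there were 803 and 654. The Cre- inputs had 103.6, 169.2 and 150.0 and the pull-downs 158.0, 153.0 and 112.4. Those groups overlapped fully, with a log2 fold change of 0.00 (95% interval -0.45 to 0.46).

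Cacna1e (chromosome 1, 154390806 to 154884785, minus strand), the third pore of this subfamily, was measured at low levels. In the Cre- inputs it had 14.0, 18.0 and 18.3 normalized counts and in the pull-downs 6.05, 5.94 and 6.52. All pull-downs lay below all inputs, and the log2 fold change was -1.44 (SE 0.31, FDR = 0.00801, edgeR quasi-likelihood test). It remained called without any single Cre- library (FDR from 0.0102 to 0.0419), but not with all 12 libraries in one fit (FDR = 0.25). In the Cre+ libraries the inputs spread from 6.63 to 25.3 and the pull-downs from 7.54 to 38.4, so the groups overlapped. The log2 fold change of 0.71 (95% interval -1.05 to 2.47) did not pass the test. Within each fraction the third library was the highest.

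Of the L-type pores, Cacna1c (chromosome 6, 118587240 to 119197384, minus strand) had the widest spread of all members. In the Cre+ pull-downs it had 467.3, 147.3 and 54.6 normalized counts, and in the inputs 64.4, 96.3 and 72.4. Pull-down 1 was 8.56 times pull-down 3, and pull-down 3 fell below every input. The log2 fold change of 1.52 (SE 0.64, FDR = 0.194, edgeR quasi-likelihood test) did not pass, and without pull-down 1 it was 0.42. With DESeq2 (FDR = 0.0793) and with all 12 libraries in one edgeR fit (FDR = 0.0666) it was called, and with the length offset it was 0.14. The Cre- inputs had 66.1, 105.0 and 84.5 and the Cre- pull-downs 75.2, 73.7 and 36.9, overlapping groups with a log2 fold change of -0.46 (95% interval -1.05 to 0.13).

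Cacna1d (chromosome 14, 30039941 to 30491156, minus strand) is listed only for the Cre- libraries, and the Cre+ table holds only genes with at least 5 counts in each library. Its 21, 22 and 71 counts in the Cre- inputs came to 2.05, 1.81 and 5.36 normalized counts, and its 243, 294 and 96 counts in the pull-downs to 13.5, 19.8 and 7.12. All pull-downs exceeded all inputs, although pull-down 3 and input 3 lay close together. Its mean FPKM of 0.79 is below the limit of 1 for testing. With no such filter its log2 fold change was 2.11 (SE 0.52, FDR = 0.0186, edgeR quasi-likelihood test), a larger change than that of any member tested with the filter in that genotype. It was called enriched in that fit, as were 739 of the 14177 genes. Chdh overlaps 4.67% of its exon bases.

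The T-type pore Cacna1h (chromosome 17, 25374285 to 25436334, minus strand) was also measured at low levels. It had 7.502, 18.1 and 12.8 normalized counts in the Cre+ inputs and 35.5, 21.4 and 14.4 in the pull-downs, with a log2 fold change of 0.89 (95% interval -0.55 to 2.33). For Cre- it had 11.7, 11.5 and 18.1 in the inputs and 15.5, 8.03 and 6.52 in the pull-downs (log2 fold change -0.46, 95% interval -1.29 to 0.38). The groups overlapped in both genotypes. Tpsg1 overlaps 1.62% of its exon bases.

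Set against each other per kilobase of exon, Cacna1b had the largest mean share of the pore RNAs in all 4 groups. Cacna1a exceeded it in Cre- pull-down 3 (48.4% against 41.7%), and both lay within their spread among the Cre- pull-downs. Exon length counted each base that is exonic in any annotated transcript of a gene once, and the shares depend on that choice. The deposited mean FPKM, over inputs and pull-downs together, ordered these pores otherwise for Cre- (Cacna1a 15.4, Cacna1b 15.2). For Cre+ it was 19.0 for Cacna1a, 21.6 for Cacna1b and 11.6 for Cacna1c. Cacna1b made up 51.4% ± 3.87 (SD, n = 3) of the summed per-kilobase level of the 5 pores listed in both tables in the Cre+ inputs and 46.3% ± 7.59 in the pull-downs, and 48.9% ± 3.69 and 44.9% ± 3.00 in the Cre- libraries. Cacna1a followed with 27.1% ± 2.06 and 34.6% ± 6.70 in the Cre+ inputs and pull-downs, and with 29.9% ± 3.76 and 42.0% ± 6.14 in the Cre- inputs and pull-downs. Among the Cre- libraries its share was higher in every pull-down (36.2% to 48.4%) than in every input (26.8% to 34.1%). Cacna1c took 22.9% in Cre+ pull-down 1 and 6.08% at the lowest of that group. Cacna1e had the smallest mean share in each group, with 2.32% ± 0.11 in the Cre- inputs and 0.79% ± 0.14 in the Cre- pull-downs.

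**Figure D2:**
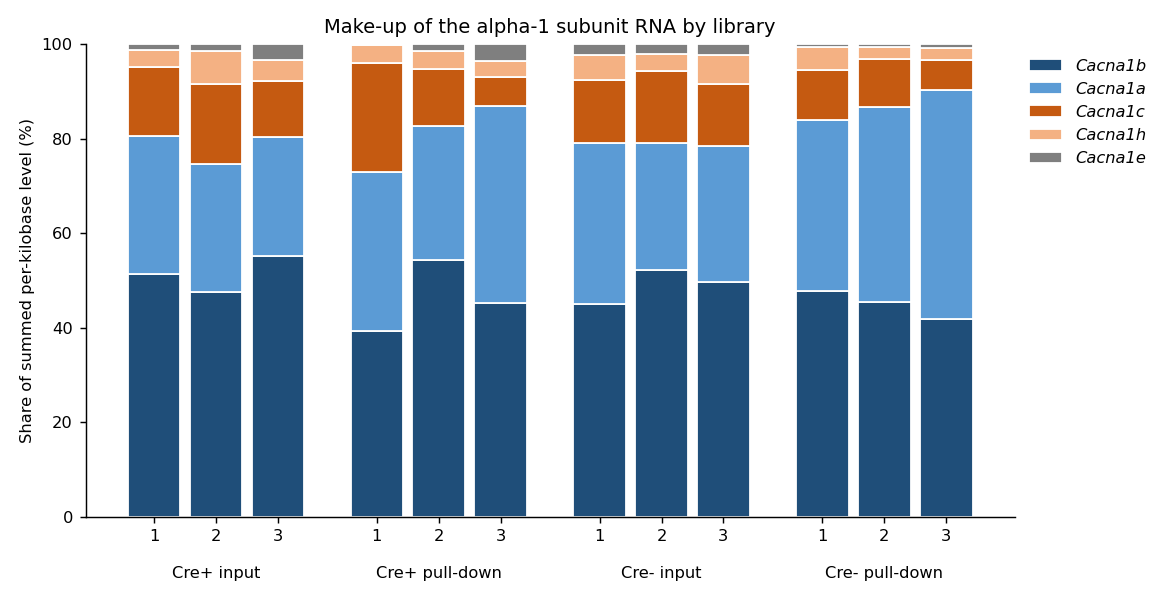
Share (%) of each of 5 pore-forming subunit genes in their summed per-kilobase level, as stacked bars for each of the 12 libraries. Cacna1b and Cacna1a together hold most of each bar, and the Cacna1c segment is at 22.9% in Cre+ pull-down 1.

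Among the alpha2delta genes, Cacna2d1 (chromosome 5, 15934264 to 16374511, plus strand) was the most abundant per kilobase. Its Cre+ inputs had 127.4, 242.7 and 238.5 normalized counts and its pull-downs 245.6, 269.9 and 384.8. Each pull-down exceeded each input, but pull-down 1 did so by little, and the log2 fold change of 0.56 (SE 0.33, FDR = 0.33, edgeR quasi-likelihood test) did not pass. For Cre- the order was turned, with 165.8, 196.7 and 232.0 in the inputs and 122.8, 119.2 and 165.8 in the pull-downs. Only pull-down 3 reached the lowest input, and the log2 fold change was -0.54 (SE 0.19, FDR = 0.0669), past the FDR but not the fold limit. That FDR was 0.335 with all 12 libraries in one fit and 0.0417 to 0.252 without a single library.

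Cacna2d2 (chromosome 9, 107399733 to 107529346, plus strand), which encodes alpha2delta-2, had 14.6, 18.4 and 15.5 normalized counts in the Cre+ inputs and 93.6, 26.8 and 21.7 in the pull-downs. The groups did not overlap, but pull-down 1 held most of the rise. The log2 fold change was 1.55 (SE 0.66, FDR = 0.197, edgeR quasi-likelihood test), and 0.62 without that library. It was called by DESeq2 (FDR = 0.0653) and with all 12 libraries in one edgeR fit (FDR = 0.0662). The Cre- inputs spread from 12.1 to 22.3 and the pull-downs from 11.3 to 27.0, with a log2 fold change of -0.02 (95% interval -0.84 to 0.81). The gene Gm17141 overlaps 1.03% of its exon bases.

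Cacna2d3 (chromosome 14, 28904943 to 29722775, minus strand), which encodes alpha2delta-3, had 28.7, 34.8 and 32.2 normalized counts in the Cre- pull-downs against 23.2, 17.2 and 17.1 in the inputs. These groups did not overlap, and the log2 fold change was 0.74 (SE 0.25, FDR = 0.0616, edgeR quasi-likelihood test), past the FDR but not the fold limit. That FDR was 0.174 with the length offset, 0.476 with all 12 libraries in one fit and 0.0381 to 0.19 without a single library. In the Cre+ libraries it had 12.5, 25.1 and 12.9 in the pull-downs and 21.4, 11.2 and 22.8 in the inputs, overlapping groups with a log2 fold change of -0.13 (95% interval -1.52 to 1.26). Its share of the alpha2delta level per kilobase was 22.1% ± 3.86 in the Cre- pull-downs and 11.04% ± 3.18 in their inputs, and 6.28% ± 3.46 and 11.1% ± 5.66 in the Cre+ pull-downs and inputs.

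Cacnb4 (chromosome 2, 52428320 to 52676609, minus strand), the only beta subunit gene among the members, was one of the 3 most abundant members per kilobase in each group. It had 111.9, 153.8 and 163.0 normalized counts in the Cre+ inputs and 152.9, 229.4 and 271.9 in the pull-downs, with a log2 fold change of 0.61 (95% interval -0.10 to 1.32) and overlapping groups. For Cre- it had 175.1, 185.1 and 153.4 in the inputs and 211.6, 218.8 and 191.1 in the pull-downs. All pull-downs lay above all inputs there by a small step, a log2 fold change of 0.28 (SE 0.15, FDR = 0.251, edgeR quasi-likelihood test). The antisense gene A430018G15Rik overlaps 16.0% of its exon bases, and reads of the pair cannot be told apart if the counting ignored strand.

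In the Cre+ libraries, 4 of the 9 members (Cacna1a, Cacna1b, Cacna2d1 and Cacna2d2) had every pull-down above every input, where 15.5% of all genes did, and 0 had every pull-down below, where 17.9% did. For Cre- the numbers were 3 above (Cacna1a, Cacna2d3 and Cacnb4), against 18.2% of genes, and 1 below (Cacna1e), against 18.6%. By the call rule, 0 of the 9 members were enriched in the Cre- libraries and 1 was depleted, as given above. DESeq2 and edgeR's exact test also called 0 enriched and 1 depleted. Over all 11526 genes, DESeq2 called 763 enriched and 718 depleted, and the exact test 749 and 800. With edgeR's quasi-likelihood test, 2 members had an unadjusted p under 0.05 upwards and 2 downwards, as did 3576 of the 11526 genes in either direction. The median log2 fold change of the members was -0.02, beside -0.04 for all genes and 0.25 for the longest 25% of genes. Of the 9 members 4 were positive.

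Ranked by mean level per kilobase in the Cre- inputs, the order was Cacnb4, Cacna2d1, Cacna1b, Cacna1a, Cacna1c, Cacna2d3, Cacna2d2, Cacna1h, Cacna1e and Cacna1d. The means ran from 19.1 ± 1.81 (SD, n = 3) normalized counts per kilobase for Cacnb4 to 0.24 ± 0.16 for Cacna1d. The ranges of neighbours overlapped among the first 3, and among Cacna2d3, Cacna2d2 and Cacna1h, and the other neighbours did not overlap. The order depends on the exon lengths used. By the deposited mean FPKM over the libraries labelled Cre-, Cacna2d1 (23.5) and Cacnb4 (23.4) lay close together, as did Cacna1a (15.4) and Cacna1b (15.2). In the Cre+ pull-downs Cacna1b came first with 29.5 ± 9.51, and every neighbour in the order overlapped the next.

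Whether enrichment differed between genotypes was tested with the 12 libraries fitted together. The difference, Cre+ minus Cre-, was positive for 8 of the 9 members, with a median of 1.19 on the log2 scale beside 0.13 over all 9006 genes, of which 54.7% were positive. Over the longest 25% of genes by exon length, to which all 9 members belong, the median was 0.42. None of the members was called (0 of 9 in either direction, edgeR quasi-likelihood test), where 2.3% of genes were called positive and 2% negative, and 5 had an unadjusted p under 0.05, as did 1754 of the 9006 genes. DESeq2 called 5 of the 9 members, all positive, and 614 genes positive and 428 negative of the 9006. The difference was 1.09 for Cacna1a (SE 0.36, FDR = 0.132), 1.19 for Cacna1b (SE 0.40, FDR = 0.139) and 1.14 for Cacna2d1 (SE 0.39, FDR = 0.149). Cacna1c, at 1.999 (95% interval 0.33 to 3.67), and Cacna1e, at 2.19 (95% interval 0.34 to 4.04), had larger estimates with wider intervals. Without Cre+ pull-down 1 the difference of Cacna1c was 0.88, and that of Cacna1e ranged from 1.57 to 2.95 over the fits without a single library. Cacna2d3 was the one negative member, at -0.83 (95% interval -2.14 to 0.49). The count of called members depended on single libraries and was 2 without Cre+ pull-down 1, 2 without Cre+ pull-down 2 and 3 without Cre+ pull-down 3. Positive calls over all 9006 genes rose as well, to 632, 717 and 498 in these fits, from 207 with every library. The counts are therefore no result about the members.

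**Figure D3:**
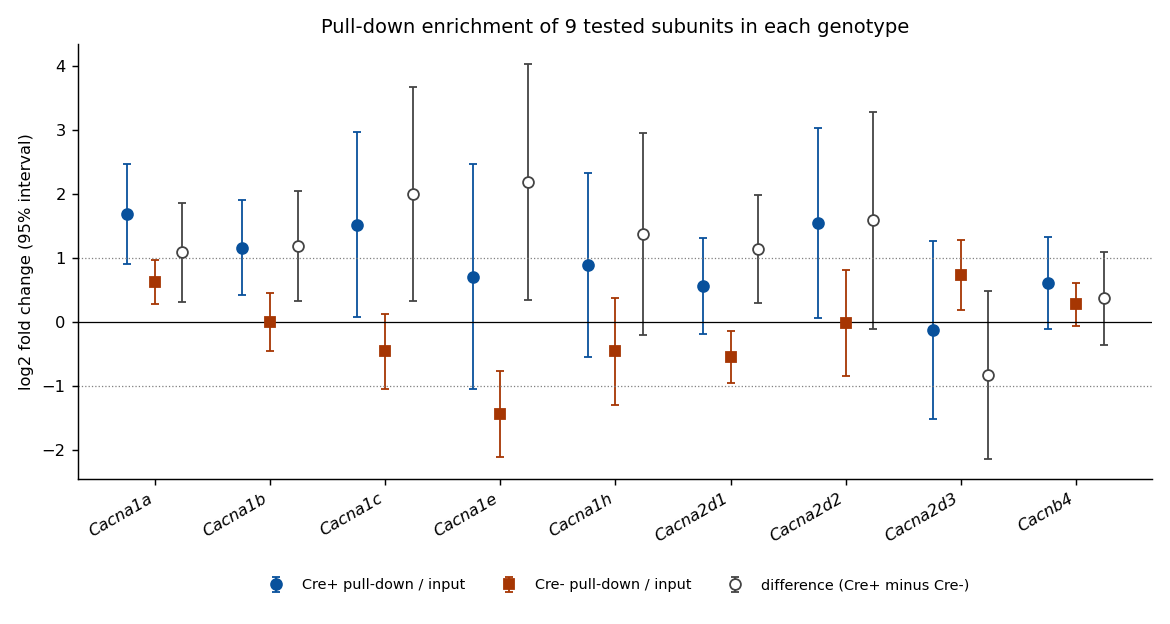
Log2 fold change of pull-down against input in the Cre+ libraries (blue circles) and the Cre- libraries (brown squares) and the difference between them (open circles) for the 9 tested members, with 95% intervals from edgeR's quasi-likelihood fit and dotted lines at a 2-fold change. The Cre+ estimate lies above the Cre- estimate for each member except Cacna2d3, and each Cre+ interval is wider than its Cre- counterpart.

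On the scale of the 12-library fit, the pull-downs labelled Cre+ lay above those labelled Cre- without overlap for Cacna1a (197.3 to 380.1 against 134.3 to 154.8 normalized counts), Cacna1b (199.3 to 385.6 against 109.4 to 153.9) and Cacna2d1 (251.7 to 403.1 against 115.6 to 161.4). The same held for Cacna1e and, by a narrow gap, Cacna1h, while Cacna2d3 was lower in each Cre+ pull-down (12.8 to 26.5) than in the Cre- pull-downs (28.0 to 33.7). These ranges are given as values, and pull-downs were not tested against each other. In the inputs, log2 differences between genotypes ran from -0.23 (Cacna1a) to 0.10 (Cacna2d1). The Cacna1a inputs did not overlap on this scale, with 72.4 to 86.2 normalized counts in those labelled Cre+ and 89.6 to 99.3 in those labelled Cre-, and the inputs of the other 8 members overlapped. No member was called there (0 of 9, edgeR quasi-likelihood test, none with an unadjusted p under 0.05, and 0 by DESeq2 or the exact test), nor was any gene (0% of 9006, with 182 at an unadjusted p under 0.05, and 1 called by each of the other tools).

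Transcript length moved with enrichment over all genes. Across 8899 genes with a length, Spearman's rho between log2 fold change and exon length was 0.459 in the Cre+ libraries, a description across genes that share libraries. It was 0.323 in the Cre- libraries (11461 genes), and 0.24 for the difference and -0.242 between inputs (8958 genes each). For Cre+, the longest 25% of genes had a median log2 fold change of 0.70 and the shortest 25% one of -0.64. All 9 tested members, with exon lengths of 7947 to 25228 bases, belonged to the longest 25% in each comparison. Of those long genes, 14.8% were called enriched in the Cre+ libraries and 0.315% depleted, and 36% had all pull-downs above all inputs and 5.84% all below. For Cre-, the longest 25% had 11.5% enriched, 1.92% depleted, 33.8% wholly above and 8.45% wholly below, with a median log2 fold change of 0.25. For the difference the longest 25% had a median of 0.42, with 4.46% called positive and 1.25% negative.

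When offsets removed each library's trend with length, 0 members were called in the Cre+ libraries, and the calls over all genes fell to 51 enriched and 13 depleted. An unadjusted p under 0.05 was then reached by 2 members and by 1613 genes over all (edgeR quasi-likelihood test). Cacna1a then had a log2 fold change of 1.06 (SE 0.30, FDR = 0.157) and Cacna1b one of 0.70 (SE 0.29, FDR = 0.253). Cacna1e (-0.56) and Cacna2d1 (-0.07) changed sign. For Cre-, Cacna1e was at -2.18 (SE 0.31, FDR = 0.000904), and Cacna1c was also called depleted, at -1.11 (SE 0.25, FDR = 0.0132). With the offset the members' median log2 fold change was 0.25 in the Cre+ libraries (6 of 9 positive), -0.23 in the Cre- libraries (3 of 9 positive) and 0.94 for the difference between genotypes (8 of 9 positive).

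**Figure D4:**
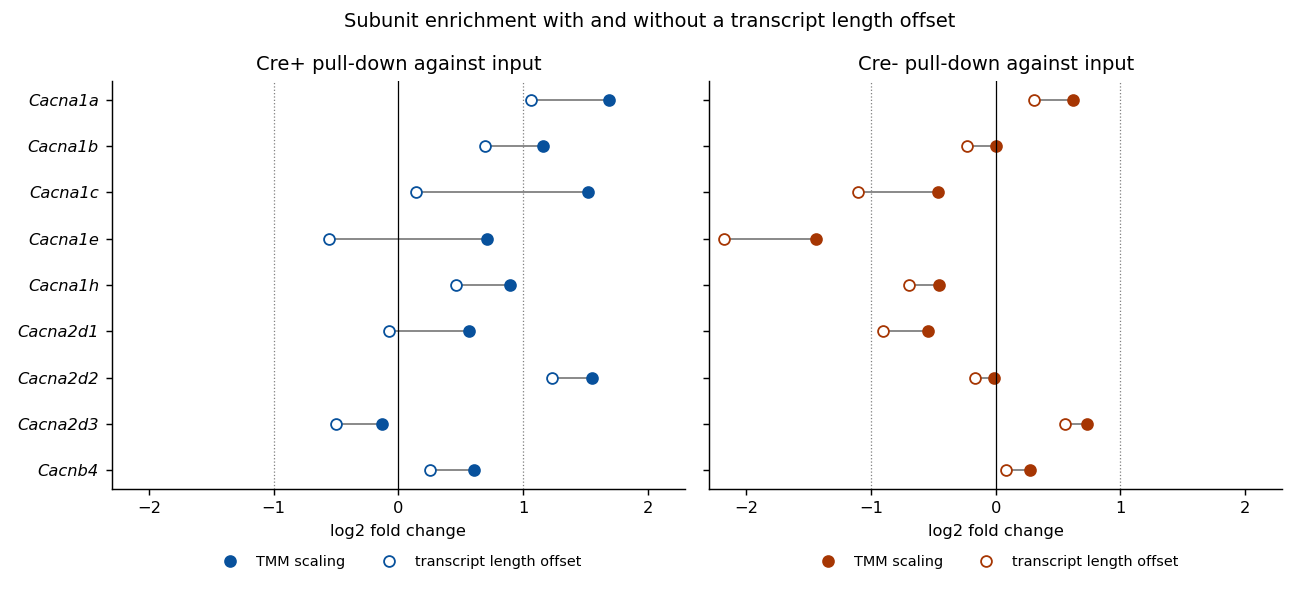
Log2 fold change of pull-down against input for the 9 tested members with TMM scaling alone (filled) and with a transcript length offset (open), for Cre+ (left) and Cre- (right), with dotted lines at a 2-fold change. Each member moves towards lower values with the offset, Cacna1c in Cre+ the furthest, from 1.52 to 0.14.

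Cre+ pull-down 1 stood apart for the members as well. It was the highest Cre+ pull-down for 5 of the 9 members (Cacna1a, Cacna1b, Cacna1c, Cacna1h and Cacna2d2) and the lowest for the other 4 (Cacna1e, Cacna2d1, Cacna2d3 and Cacnb4), so it was never in the middle. Cre+ input 1 stood apart too, as the lowest Cre+ input for 8 of the 9 members (all but Cacna2d3), with a correlation across genes of 0.913 and 0.914 with the other inputs, the lowest values among the Cre+ input pairs. Of 5 endothelial markers, 4 were listed (all but Cldn5), and their summed level was 514.6 normalized counts in Cre+ pull-down 1, 115.4 and 144.7 in the other Cre+ pull-downs and 49.8 to 94.96 in the Cre+ inputs. In the Cre- libraries the sum was 141.0 in pull-down 1, 20.4 and 24.4 in the other pull-downs and 68.5 to 93.5 in the inputs. The Cre- pull-down with that highest sum was the highest of its group for Cacna1b, Cacna1c, Cacna1h and Cacna2d2, the lowest for Cacna1a and Cacna2d3 and in the middle for the other 3 members. Of the striated muscle markers, Ttn alone was listed for Cre+ (19.8 to 34.6 in the inputs, 188.5 to 1017 in the pull-downs, highest in pull-down 1), while Acta1, Myh4, Ckm and the muscle pore gene Cacna1s were not listed there. In Cre+, Ttn (4.38, FDR = 0.025) and 1 of the 4 endothelial markers, Flt1 (2.83, FDR = 0.0951, edgeR quasi-likelihood test), were called enriched, where 4.72% of all tested genes were. The 2 striated muscle markers listed for Cre- summed to 21.6 to 25.3 in the inputs and 77.9 to 252.6 in the pull-downs. Schwann and satellite glia markers (8 of 12 listed) summed to 2930 to 4030 in the Cre+ inputs and 1862 to 2729 in the pull-downs, and for Cre- (11 of 12 listed) to 3290 to 4667 and 1648 to 2040. Pmp22 made up most of this sum in the inputs. Of the 10 glia markers tested in Cre-, 4 were called depleted (median log2 fold change -1.31), where 5.83% of all tested genes were. These were Pmp22 (-1.71, FDR = 0.000561), Apoe (-1.58, FDR = 0.0216), Fabp7 (-3.09, FDR = 0.0491) and Ednrb (-1.51, FDR = 0.0829, edgeR quasi-likelihood test). The only 2 positive ones were S100b (0.69, FDR = 0.0114) and Glul (0.02, FDR = 0.972). In Cre+, 0 of the 8 tested were called and 1 was positive (median -0.56). Of 12 markers of other sensory neurons, 11 were tested in Cre-, with 0 enriched and 4 depleted (median log2 fold change -1.20). In Cre+ 10 were tested, with 0 enriched and 1 depleted (median -0.01), where 2.19% of all tested genes were depleted. All 10 had a positive difference, Cre+ minus Cre- (median 0.89, 0 called), the direction of 8 of the 9 members. The part of these cell types in the members' values was not tested.

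Of the 16 other genes named as calcium channel genes (the remaining pores, Cacna2d4, the other beta genes and the Cacng family, related to the muscle gamma subunit), 4 were listed for Cre+ and 8 for Cre-. The Cacng genes belong here by symbol only, and whether they act as calcium channel subunits in these cells was not tested. None of the 4 was called in the Cre+ libraries, where 4.72% of all tested genes were enriched and 2.19% depleted. Cacnb3 was the most abundant listed beta gene by mean FPKM (81.5 for Cre+ and 70.9 for Cre- in the deposited tables). Its log2 fold change of 0.53 in the Cre+ libraries (SE 0.32, FDR = 0.338) did not pass. That of -0.67 in the Cre- libraries (SE 0.16, FDR = 0.0122, edgeR quasi-likelihood test) passed the FDR but not the fold limit. The difference of 1.23 (SE 0.35, FDR = 0.0901) was called, the only call among the 4 genes tested for it, where 2.3% of all genes had a called positive difference. Cacng7 gave 0.47 (FDR = 0.435) and 0.10 (FDR = 0.781), Cacng2 1.05 (FDR = 0.515) and 0.74 (FDR = 0.147), and Cacnb1 -0.54 (FDR = 0.53) and -0.54 (FDR = 0.229) for Cre+ and Cre-. Cacng5, listed only for Cre-, was called there (1 of the 7 tested, where 6.01% of all genes were enriched), with a mean of 49.4 ± 16.9 normalized counts (SD, n = 3) in its pull-downs against 7.75 ± 3.49 in its inputs (log2 fold change 2.67, FDR = 0.000458). Cacnb2 (0.37, FDR = 0.689) and Cacng3 (-1.37, FDR = 0.331) were not called in the Cre- libraries, and Cacna1i was listed below the limit for testing, with 1 to 49 counts.

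Genes whose proteins bind or regulate these channels were given as a list of 24. Of these, 17 were tested for Cre+, with 1 called enriched and 1 depleted (median log2 fold change -0.17), and 20 for Cre-, with 3 enriched and 2 depleted (median 0.36). Over all genes tested, the shares called in Cre+ were 4.72% (enriched) and 2.19% (depleted), and those in Cre- were 6.01% and 5.83%. The 4 smallest FDRs in Cre+ were those of Lrp1 (3.01, FDR = 0.026), a receptor that binds alpha2delta, Calm2 (-1.72, FDR = 0.0422), one of 3 calmodulin genes, Thbs1 (6.13, SE 2.10, FDR = 0.14, with 2272 ± 3883 normalized counts in the pull-downs, 32.3 ± 13.1 in the inputs and overlapping groups) and Dpysl2 (-0.66, FDR = 0.159), which encodes the channel partner CRMP2. In the Cre- libraries they were Snap25 (1.17, FDR = 0.000275), a SNARE protein of synaptic vesicle release, Stac (-1.12, FDR = 0.00507), an L-type channel adaptor, the calcium-activated potassium channel Kcnma1 (1.03, FDR = 0.00626) and Rimbp2 (1.73, FDR = 0.00655), which links N-type and P/Q-type channels to the release site. The difference between genotypes was called for Snap25 (-1.76, FDR = 0.0158) and Calm2 (-1.65, FDR = 0.0701), both edgeR quasi-likelihood tests. These were 2 negative and 0 positive calls among the 17 tested, where 2% and 2.3% of all genes were called.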

How the data were processed

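The authors aligned reads to mm10 with STAR and counted uniquely mapped read fragments per refSeq (refFlat) gene with HTSeq; the submitters' processing notes also name CASAVA 1.8.2 and edgeR. The deposited counts are whole numbers, not normalized. The deposited FPKM is the authors' mean over the libraries of a table and served only as a filter (above 1). The authors' own fold changes, p-values and FDR, and 18 further per-sample columns of normalized values, were not used. The Cre+ pull-down columns, whose names resemble titles of Cre- pull-downs, were tied through the labels to their group and not to single samples, so their numbers are only names.

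The 10 genes and the gene lists were chosen with earlier results of these data known. All 10 genes are named, other channel genes by value where listed, and of the partners the 4 with the smallest FDR in each genotype. Counts were tested with edgeR 4.0.16 in R 4.3.3 (TMM, glmQLFit with robust estimation, glmQLFTest) over all genes past the filter, 3 pull-downs against 3 inputs per genotype, and over 12 libraries for the difference, on genes listed in both tables. Standard errors were the log2 fold change divided by the square root of F. Exon lengths, overlaps and start codons came from GENCODE M21, and 99.44% to 99.47% of tested genes had a length. Exons were merged over all annotated transcripts of a gene for its length. Gene coordinates came from RefSeq (GRCm38.p6). The alternatives were DESeq2 1.42.0, edgeR's exact test, other filters, scalings and call rules, a length offset, a replicate block, all libraries in one fit and each library left out. Reads had no molecular identifiers, so counts are not independent molecules. No 2 libraries of a group agreed within sampling noise. Scripts were tested on simulated counts.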

Additional observations from a re-analysis of the deposited data

How the results depend on the processing

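Counts of members are small, and members near the limits changed sides. The number of members called enriched in the Cre+ libraries was 2, and became 4 with DESeq2 and with all 12 libraries in one fit, 1 with upper-quartile scaling, with scaling by library size alone and at an FDR below 0.05, 0 with the length offset, and 0 to 3 when single libraries were left out. In the Cre- libraries 0 members were called enriched, and 1 with a count filter or no filter (Cacna1d, which then entered the test). Over all genes, 736 of 13425 and 739 of 14177 were enriched with those settings. With no fold limit 2 members were enriched and 2 depleted, as were 1502 and 1284 of 11526 genes. In the main fit 1 member was depleted. The count was 2 with the length offset (519 genes over all) and 0 with all 12 libraries in one fit (173 genes). The number of members called with a positive difference between genotypes was 0, 5 with DESeq2, and 0 to 3 without single libraries. Without single libraries, enriched calls over all genes ran from 4 to 803 in Cre+, and positive calls for the difference from 13 to 717. The members' counts in those fits are therefore no result about the members.

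In the pull-down against the input, directions turned for 5 members. With the length offset Cacna1e was at -0.56 and Cacna2d1 at -0.0745 in Cre+. Cacna1b, at 0.00 in Cre-, went to -0.0086 and -0.0061 with a count filter and no filter, -0.0269 with upper-quartile scaling, -0.23 with library size alone, -0.23 with the length offset and -0.0229 with all 12 libraries, and lay between -0.18 and 0.15 without single libraries. Left-out libraries also moved Cacna2d2 in Cre- between -0.52 and 0.22 and Cacna2d3 in Cre+ between -0.51 and 0.0857. Between the inputs of the genotypes 2 members were higher and 7 lower in Cre+, and 5 and 4 with the length offset, with 0 called in both fits. The cause was not tested in any of these cases. Fitting without robust dispersion, added after seeing the data, changed no call of a member.

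Replicate numbers could be used as a block only in Cre-, where deviations of same-numbered samples correlated by 0.0654, 0.0274 and 0.121, so the numbers were not taken as pairs. The replicate block changed the calls over all genes to 704 enriched and 792 depleted, from 693 and 672, and left the members' calls at 0 enriched and 1 depleted. Scaling by library size alone shifted the median log2 fold change of all genes to -0.36 in Cre+ and -0.27 in Cre-. Over all genes, the Cre+ calls of 422 enriched and 196 depleted became 192 and 699 with that scaling, 249 and 266 with upper-quartile scaling, 1103 and 568 with DESeq2, 794 and 485 with the exact test, 1254 and 955 with all 12 libraries and 51 and 13 with the length offset, and the Cre- calls became 429 and 1238 with library size alone and 270 and 173 with all 12 libraries.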
